A study of Capra hircus with 12 samples.

Results

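The genes described here encode enzymes and carriers that remove peroxides and superoxide: the glutathione peroxidases GPX1, GPX4 and GPX8, the thioredoxins TXN and TXN2 with their reductases TXNRD1 and TXNRD2, the superoxide dismutases SOD1 and SOD2, and catalase (CAT). They were taken by symbol from the goat count tables and make up 10 of the 28910 rows. Each of the 10 had enough counts to be tested in every comparison.

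Superoxide that leaks from respiration or is made by oxidases is turned into hydrogen peroxide by superoxide dismutases. Catalase breaks hydrogen peroxide down directly, whereas glutathione peroxidases reduce it with glutathione, and peroxiredoxins reduce it with electrons from thioredoxin, which NADPH-dependent thioredoxin reductases recharge. In cartilage, which has little blood supply, interleukin-1β raises the production of reactive oxygen species by chondrocytes, and SOD2 is a known target of the NF-κB pathway that this cytokine switches on.

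Cells were grown from the mandibular condyle (TMJ) of female goats of 6 to 9 months bought from abattoirs, and were used at passage 3 to 5. Superficial layer cells (SLC) and middle cartilage layer cells (MLC) were each sequenced as 3 libraries per treatment, IL-1β or IL-1β + LOXL2, so that the 4 groups share IL-1β. By the study's methods, IL-1β was given at 10 ng for 1 h, and LOXL2, an enzyme that crosslinks collagen, was delivered beforehand with an adenovirus overnight. The question addressed was how LOXL2 changes the response of both layers to IL-1β, a model of osteoarthritis. The methods name an empty virus for goat cells measured by flow cytometry but do not say whether the IL-1β cultures that were sequenced received it. Layer and any batch of culture or sequencing cannot be told apart. Cells without IL-1β were not analysed here. How goats were divided over cultures is not stated, so p-values measure the spread between these libraries, which may be technical. RNA is from bulk cultures, in which fewer cells of a type and less RNA per cell cannot be told apart.

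Library totals ran from 14158607 to 28931652 counts, and each of the genes had a mean of at least 562 normalized counts in every group. Normalized counts are counts divided by DESeq2's size factor. Replicates differed by more than counting noise in all groups. The first SLC IL-1β + LOXL2 replicate stood apart: chi-square per degree of freedom was 159 and 58.1 for the pairs that held it and 29.2 for the other pair of its group, compared with at most 9.37 in the IL-1β groups. The first MLC IL-1β + LOXL2 replicate stood apart in the same way to a lesser degree, with 15.2 and 33.9 for its pairs and 5.81 for the other. In the first SLC replicate SOD2 took 0.156% of all counts, compared with 0.432% and 0.326% in the other libraries of its group. Results of both groups for the 10 genes are therefore given with and without their first replicate. So are counts pooled over lists of other genes, and the counts of NF-κB response genes that changed with LOXL2. Counts for each of the other lists are given with all replicates only.

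Libraries also differed along the length of genes. For each library, log2 CPM (counts scaled by library total, here with TMM factors) was taken as a deviation from each gene's mean in its layer. The slope of these deviations on genomic gene span, introns included, is thus relative to the other libraries of the layer. Slopes were from 0.096 to 0.214 log2 units per unit of log10 span in the 6 IL-1β libraries. They were 0.062, -0.371 and -0.234 in the SLC IL-1β + LOXL2 replicates and 0.023, -0.155 and -0.222 in the MLC ones. Relative to the IL-1β libraries of the layer, genes of short span thus had higher values in those labelled IL-1β + LOXL2. Among tested genes with a span of up to 5000 bases the median log2 fold change of IL-1β + LOXL2 against IL-1β was 0.44 in SLC and 0.27 in MLC, and among those over 100000 bases it was -0.43 and -0.29. GPX1 (1171 bases), GPX4 (2306), GPX8 (4847), SOD1 (8275), TXN2 (10184), TXN (12038) and SOD2 (12532) were shorter than the median tested gene (20548), whereas TXNRD2 (27142), CAT (36325) and TXNRD1 (96047) were longer. This trend moved with the treatment, and its part in each result was not tested. For the LOXL2 comparisons, values with the trend taken out are given beside those of the genes.

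The goat LOXL2 gene had 11583, 11647 and 11894 normalized counts with IL-1β in SLC and 8541, 10124 and 10387 with IL-1β + LOXL2. In MLC the values were 14291, 16294 and 15189 with IL-1β and 15249.9, 14740.4 and 13808 with IL-1β + LOXL2. The treated group was the lower in SLC with no overlap, and the groups overlapped in MLC. The methods do not give the species of the LOXL2 sequence in the virus, so whether its reads count on the goat gene is not known, these counts do not test the labels, and directions below rest on the labels. Log2 fold changes were -0.27 in SLC (edgeR, Benjamini-Hochberg adjusted p = 0.106) and -0.07 in MLC (edgeR, Benjamini-Hochberg adjusted p = 0.595).

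**Figure D1:**
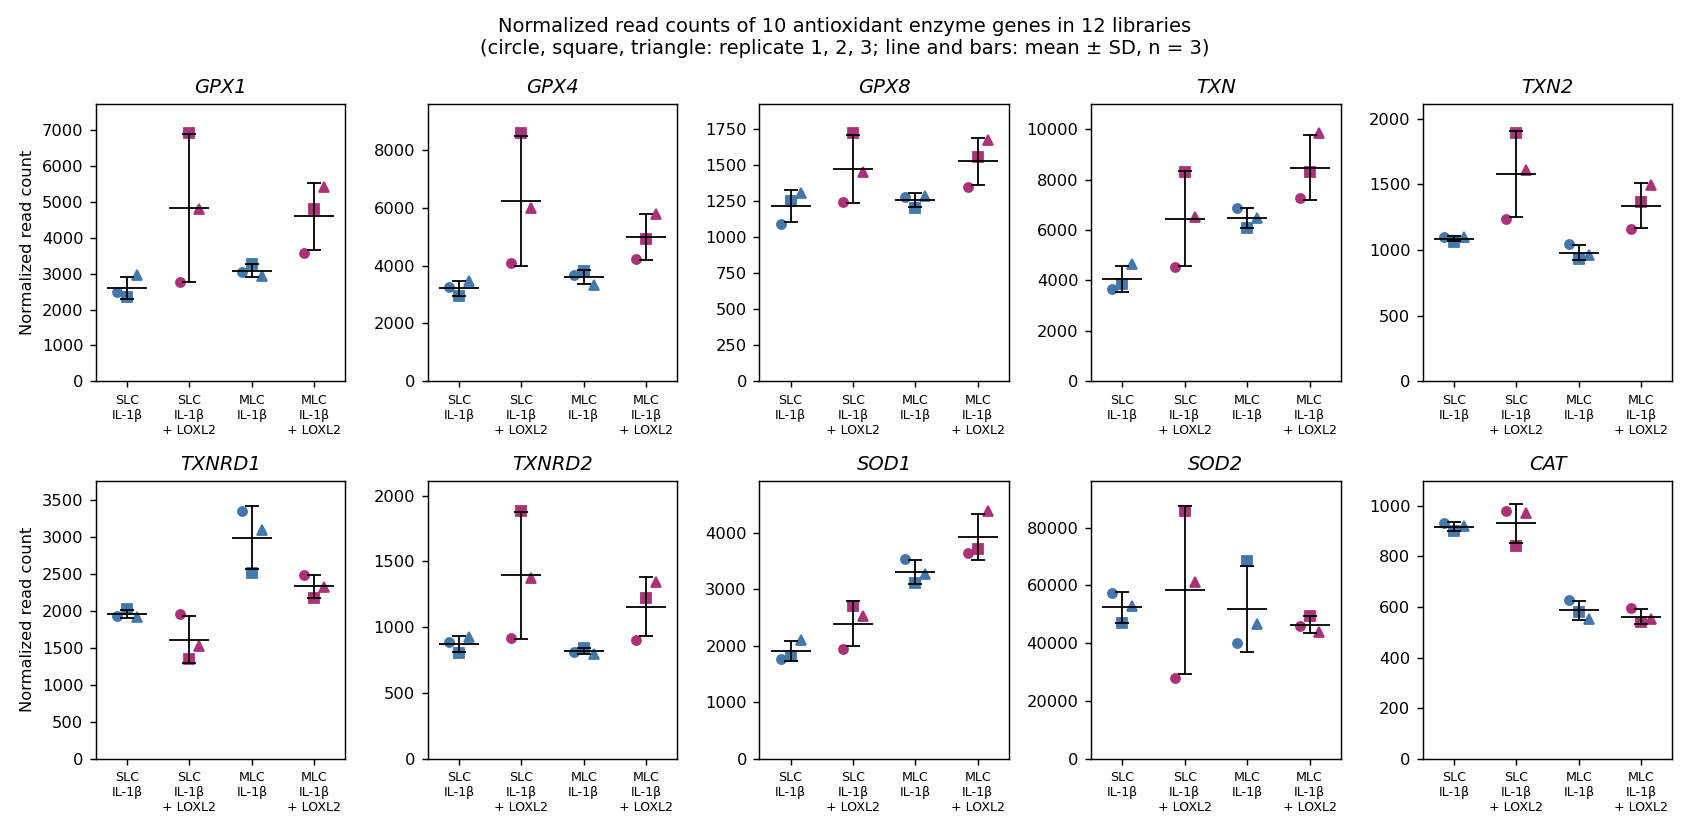
Normalized read counts (vertical axes, starting at 0) of the 10 genes in each of 12 libraries, by layer and treatment; symbols mark replicates 1 to 3, lines and bars the mean ± SD (n = 3). SOD1 and TXNRD1 lie higher in MLC than in SLC and CAT lower, and GPX4 lies above its IL-1β libraries in every IL-1β + LOXL2 library of both layers.

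GPX1, the cytosolic glutathione peroxidase that clears hydrogen peroxide, lies on chromosome 22 (50828681 to 50829851, ARS1.2). In SLC its normalized counts were 2492, 2347 and 2953 with IL-1β and 2772, 6913 and 4815 with IL-1β + LOXL2. The treated libraries were spread widely, and the lowest of them overlapped the IL-1β group. The log2 fold change was 0.90 (SE 0.30, edgeR, Benjamini-Hochberg adjusted p = 0.0766), which did not pass the threshold of 0.05. In MLC the counts were 3056, 3273 and 2938 with IL-1β and 3588, 4812 and 5413 with IL-1β + LOXL2, with no overlap between groups. GPX1 rose in MLC by a log2 fold change of 0.57 (SE 0.13, edgeR, Benjamini-Hochberg adjusted p = 0.0207). With the span trend removed its values were 0.37 in SLC and 0.27 in MLC, and the latter no longer passed (edgeR, Benjamini-Hochberg adjusted p = 0.0575).

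GPX4 encodes the selenoenzyme that reduces lipid peroxides within membranes and so holds back ferroptosis, and lies on chromosome 7 (66891529 to 66893834). SLC libraries held 3259, 2948 and 3460.5 normalized counts with IL-1β and 4092, 8572 and 6000.2 with IL-1β + LOXL2. Every treated SLC library was above every IL-1β library, with an SD of 2248 in the treated group and 258 in the IL-1β group (n = 3 each). The log2 fold change was 0.95 (SE 0.25, edgeR, Benjamini-Hochberg adjusted p = 0.0706). MLC libraries held 3672, 3803 and 3329 normalized counts with IL-1β and 4228, 4917 and 5797 with IL-1β + LOXL2. Groups did not overlap in MLC either, and GPX4 rose there by a log2 fold change of 0.47 (SE 0.12, edgeR, Benjamini-Hochberg adjusted p = 0.0229). Without the span trend the GPX4 values were 0.50 in SLC (edgeR, Benjamini-Hochberg adjusted p = 0.0781) and 0.20 in MLC (edgeR, Benjamini-Hochberg adjusted p = 0.104).

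GPX8, a peroxidase of the endoplasmic reticulum membrane that works beside protein disulfide formation, lies on chromosome 20 (23993606 to 23998452), within the span of CDC20B. Since the strand setting of the counting is not given in the sources used here, reads of both genes cannot be told apart. SLC counts were 1089, 1246 and 1305 with IL-1β and 1245, 1718 and 1453 with IL-1β + LOXL2, and MLC counts were 1279, 1199 and 1287 with IL-1β and 1346, 1554 and 1669.8 with IL-1β + LOXL2. SLC groups overlapped and MLC groups did not. Log2 fold changes were 0.28 in SLC (SE 0.14, edgeR, Benjamini-Hochberg adjusted p = 0.162) and 0.28 in MLC (SE 0.10, edgeR, Benjamini-Hochberg adjusted p = 0.0694), neither past the threshold. With the span trend removed they were -0.06 and 0.06, so the sign for SLC turned.

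TXN, the cytosolic thioredoxin that passes electrons to peroxiredoxins and ribonucleotide reductase, lies on chromosome 8 (99557654 to 99569691). Its SLC counts were 3665, 3855 and 4651 with IL-1β and 4549, 8301 and 6497 with IL-1β + LOXL2. MLC counts were 6866, 6063 and 6471 with IL-1β and 7287, 8309.6 and 9830.5 with IL-1β + LOXL2. The treated and untreated groups overlapped in SLC through the first treated replicate, whereas all 3 treated MLC libraries were above the IL-1β ones. The SLC log2 fold change was 0.67 (SE 0.22, edgeR, Benjamini-Hochberg adjusted p = 0.0739), and TXN rose in MLC by 0.39 (SE 0.11, edgeR, Benjamini-Hochberg adjusted p = 0.0321). Without the span trend the TXN values were 0.50 in SLC (edgeR, Benjamini-Hochberg adjusted p = 0.0886) and 0.28 in MLC (edgeR, Benjamini-Hochberg adjusted p = 0.0597).

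TXN2, the thioredoxin of mitochondria, lies on chromosome 5 (73582846 to 73593029). SLC libraries gave 1095, 1062 and 1096 normalized counts with IL-1β and 1234, 1887 and 1611 with IL-1β + LOXL2. MLC libraries gave 1043, 931 and 960.0 with IL-1β and 1157, 1365 and 1491 with IL-1β + LOXL2. In both layers each treated library was above each IL-1β library. The log2 fold change was 0.54 in SLC (SE 0.16, edgeR, Benjamini-Hochberg adjusted p = 0.0706), and TXN2 rose in MLC by 0.45 (SE 0.11, edgeR, Benjamini-Hochberg adjusted p = 0.0231). With the span trend removed the values were 0.34 in SLC and 0.31 in MLC, and the MLC increase still passed (edgeR, Benjamini-Hochberg adjusted p = 0.0412).

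TXNRD2, the selenoenzyme that recharges TXN2 in mitochondria, is on an unplaced scaffold (509146 to 536287), so its neighbours were not examined. SLC counts were 887, 806 and 924 with IL-1β and 918, 1885 and 1377 with IL-1β + LOXL2, and MLC counts were 809.5, 844 and 797 with IL-1β and 905, 1221 and 1344 with IL-1β + LOXL2. The first treated SLC replicate fell inside the IL-1β range, and MLC groups did not overlap. The log2 fold change was 0.68 in SLC (SE 0.24, edgeR, Benjamini-Hochberg adjusted p = 0.0821), and TXNRD2 rose in MLC by 0.50 (SE 0.13, edgeR, Benjamini-Hochberg adjusted p = 0.0270). With the span trend removed the values were 0.71 and 0.52, and the MLC increase again passed (edgeR, Benjamini-Hochberg adjusted p = 0.0277). The removal acts through a gene's span and so hardly moves TXNRD2, whose span is near the median, yet its MLC counts followed the library slope in all 6 libraries, from 797 at a slope of 0.133 to 1344 at -0.222. GPX1 ordered the MLC libraries in the same way, from 2938 to 5413, and TXN2 was lowest in the 3 with IL-1β and highest (1491) at -0.222. The part of the library slope itself in the TXNRD2 and TXN2 calls was not tested.

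TXNRD1, the cytosolic reductase that recharges TXN, had a lower mean in the treated group of each layer. It lies on chromosome 5 (66561522 to 66657568), and its span holds the gene EID3, a pseudogene and a tRNA gene, whose reads may be shared. SLC counts were 1934.5, 2021 and 1917 with IL-1β and 1955, 1344 and 1526 with IL-1β + LOXL2, and MLC counts were 3349.7, 2513 and 3096 with IL-1β and 2488, 2177 and 2322 with IL-1β + LOXL2. The first treated SLC replicate lay within the IL-1β range and the other pair below it, and in MLC every treated library was below every IL-1β library. In SLC the log2 fold change was -0.28 (SE 0.15, edgeR, Benjamini-Hochberg adjusted p = 0.185). TXNRD1 fell in MLC, with a log2 fold change of -0.36 (SE 0.11, edgeR, Benjamini-Hochberg adjusted p = 0.0397). Without the span trend the values were 0.04 in SLC, with the sign turned, and -0.12 in MLC, and neither passed (edgeR, Benjamini-Hochberg adjusted p = 0.708 and 0.430).

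SOD1, the copper and zinc superoxide dismutase of the cytosol, lies on chromosome 1 (2298761 to 2307035). SLC libraries held 1774, 1826 and 2106 normalized counts with IL-1β and 1941, 2704 and 2519 with IL-1β + LOXL2, which overlap. MLC libraries held 3544, 3108 and 3266 with IL-1β and 3651, 3722 and 4390.4 with IL-1β + LOXL2, which do not overlap. All 6 MLC libraries were above all 6 SLC libraries. LOXL2 log2 fold changes of SOD1 did not pass, at 0.33 in SLC (SE 0.15, edgeR, Benjamini-Hochberg adjusted p = 0.124) and 0.24 in MLC (SE 0.10, edgeR, Benjamini-Hochberg adjusted p = 0.0900). After removal of the span trend SOD1 had 0.08 in SLC and 0.08 in MLC.

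SOD2, the manganese superoxide dismutase of the mitochondrial matrix, lies on chromosome 9 (83258894 to 83271425). SLC libraries held 57303, 46831 and 52936 normalized counts with IL-1β and 28006, 85789 and 61299 with IL-1β + LOXL2. MLC libraries held 40053, 68383 and 46588 with IL-1β and 45773, 49499 and 43706 with IL-1β + LOXL2. Groups overlapped in both layers: the lowest and the highest of the 12 values were both SLC IL-1β + LOXL2 libraries, and in MLC the second IL-1β replicate was the highest. The SD of SOD2 was 29003 in the SLC IL-1β + LOXL2 group and 2936 in the MLC one (n = 3 each). Log2 fold changes were 0.16 in SLC (SE 0.35, edgeR, Benjamini-Hochberg adjusted p = 0.743) and -0.16 in MLC (SE 0.16, edgeR, Benjamini-Hochberg adjusted p = 0.470). The SLC sign rested on single libraries, since the value was 0.49 without the first treated replicate and -0.23 without the second. SOD2 without the span trend had -0.01 in SLC, with the sign turned, and -0.26 in MLC.

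CAT, the peroxisomal enzyme that splits hydrogen peroxide, lies on chromosome 15 (17920347 to 17956671). Its SLC counts were 933, 899 and 919 with IL-1β and 980.2, 842 and 971 with IL-1β + LOXL2, and its MLC counts were 626, 581 and 553 with IL-1β and 596, 539 and 551 with IL-1β + LOXL2. Treatment groups overlapped in each layer, whereas every MLC library was below every SLC library. The LOXL2 log2 fold change was 0.03 in SLC (SE 0.11, edgeR, Benjamini-Hochberg adjusted p = 0.859) and -0.06 in MLC (SE 0.10, edgeR, Benjamini-Hochberg adjusted p = 0.672). CAT without the span trend had 0.13 in SLC and 0.02 in MLC, the latter with the sign turned.

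**Figure D2:**
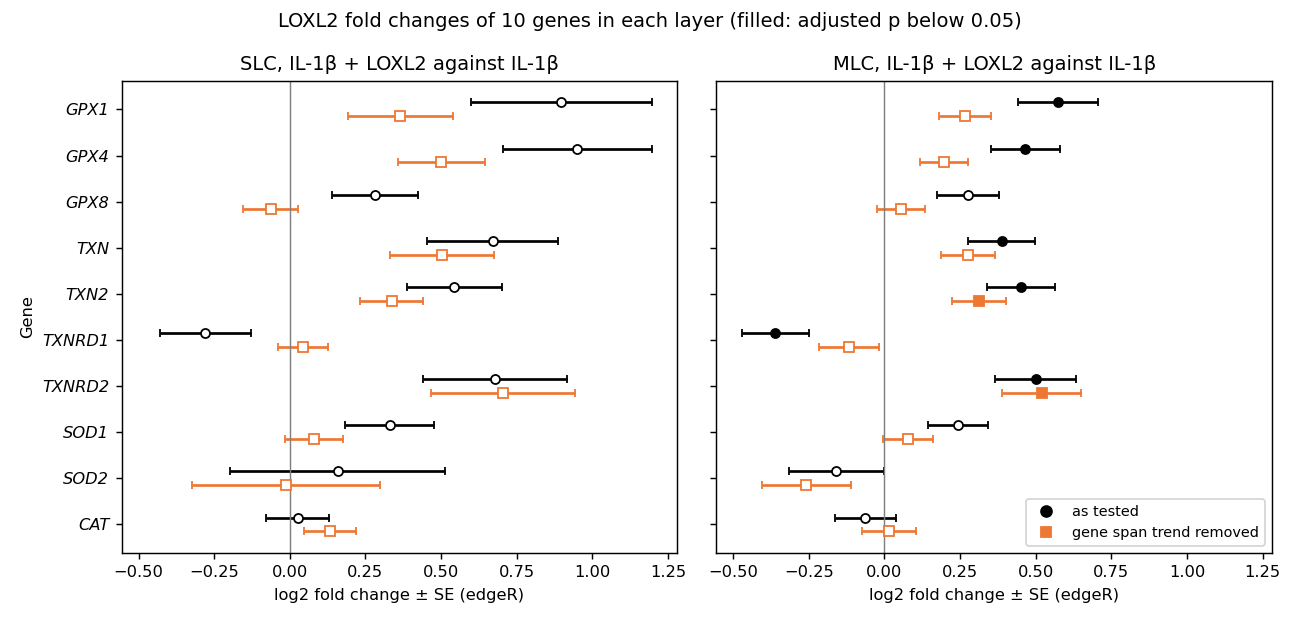
Log2 fold change ± SE of IL-1β + LOXL2 against IL-1β (horizontal axes, 3 libraries per group) for the 10 genes in SLC and MLC, as tested (black circles) and with each library's trend on gene span removed (orange squares); filled symbols have an adjusted p below 0.05. In MLC 6 genes pass as tested and TXN2 and TXNRD2 pass after removal, and in SLC none passes either way.

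In MLC, then, GPX1, GPX4, TXN, TXN2 and TXNRD2 rose with LOXL2 and TXNRD1 fell, 5 and 1 of the 10 genes, while among the 13664 genes tested 9.81% rose and 11.8% fell. The median log2 fold change was 0.33 over the 10 genes and 0.01 over all genes tested, and 0.14 and 0.01 with the span trend removed. Treated and IL-1β libraries did not overlap for 7 genes with higher treated values, compared with 21.5% of all tested genes, and for TXNRD1 with lower ones, compared with 19.9%. The exact permutation test of 3 libraries against 3 gave p = 0.1 for each of these, the smallest it can give. After removal of the span trend 2 of the 10 genes rose and 0 fell, among 6.11% and 7.33% of all genes. The MLC calls depended on which libraries were kept: none of the 10 passed without IL-1β replicate 1 or 3 or without IL-1β + LOXL2 replicate 2 or 3, only TXNRD1 passed without the second IL-1β replicate, and 8 passed without the first IL-1β + LOXL2 replicate, GPX8 and SOD1 being added and 6653 genes being called in all, compared with 2958. Log2 fold changes with 1 library left out ran from 0.44 to 0.73 for GPX1, 0.34 to 0.58 for GPX4, 0.27 to 0.49 for TXN, 0.36 to 0.55 for TXN2, 0.37 to 0.66 for TXNRD2 and -0.47 to -0.27 for TXNRD1, so their signs held. No MLC gene passed in a fit on all 12 libraries.

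In SLC 0 of the 10 genes passed, as did 0 of the 14103 genes tested (0%) with edgeR's quasi-likelihood test. Before adjustment 6108 genes had a p below 0.05, and GPX1, GPX4, TXN, TXN2 and TXNRD2 were 5 of these. The median log2 fold change was 0.44 over the 10 genes and 0.01 over all genes, and 0.24 and 0.01 with the span trend removed. GPX4 and TXN2 were the 2 with no overlap, both higher with LOXL2, as for 23.8% of all genes, and 0 of the 10 were lower with no overlap, as for 25.2%. DESeq2's Wald test called the same 5 genes higher, among 17.3% of genes higher and 15.2% lower. Without the first IL-1β + LOXL2 replicate, edgeR called 8 of the 10 genes higher and TXNRD1 lower, all but CAT, while 31.0% of all genes were higher and 30.8% lower. Log2 fold changes then were 1.17 for GPX1, 1.18 for GPX4, 0.38 for GPX8, 0.87 for TXN, 0.69 for TXN2, 0.90 for TXNRD2, 0.46 for SOD1, 0.49 for SOD2, -0.45 for TXNRD1 and -0.02 for CAT.

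The LOXL2 effect was not shown to differ between layers for any of the genes. The interaction of layer and treatment in edgeR's quasi-likelihood test called 0 of the 10 and 0 of 14534 genes (0%), with 328 genes at an unadjusted p under 0.05, and DESeq2 also called 0. GPX4 had the largest difference among the 10, with a log2 fold change lower in MLC by an estimate of -0.50 (SE 0.30, edgeR, Benjamini-Hochberg adjusted p = 0.959), and GPX8 the smallest, at -0.02 (SE 0.18). Without the first SLC IL-1β + LOXL2 replicate 3987 genes had an unadjusted p under 0.05, 1 gene was called, and the median over the 10 genes was -0.34, compared with -0.15 with it. GPX4 then had -0.73 (edgeR, Benjamini-Hochberg adjusted p = 0.0948), and none of the 10 passed. Without the first MLC IL-1β + LOXL2 replicate 266 genes had an unadjusted p under 0.05 and 0 were called.

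The layers were also compared within each treatment. With IL-1β alone, 4 of the 10 genes were higher in MLC and 1 was lower, while 24.2% of 13965 genes tested were higher and 22.7% lower. SOD1 had 3306 ± 221 normalized counts (SD, n = 3) in MLC and 1902 ± 179 in SLC, a log2 fold change of 0.82 (SE 0.08, edgeR, Benjamini-Hochberg adjusted p = 6.72e-07). TXN had 6467 ± 401 and 4057 ± 523, a log2 fold change of 0.69 (SE 0.08, edgeR, Benjamini-Hochberg adjusted p = 1e-05). Its reductase TXNRD1 had 2986 ± 429 and 1958 ± 55.8, a log2 fold change of 0.63 (SE 0.09, edgeR, Benjamini-Hochberg adjusted p = 3.29e-05). These cytosolic carriers and SOD1 were higher in each MLC library than in each SLC library, 3 of the 10 genes. The same held for 3754 of the 13965 genes tested. CAT was lower in MLC, 586 ± 36.8 against 917 ± 17.1, with a log2 fold change of -0.63 (SE 0.07, edgeR, Benjamini-Hochberg adjusted p = 4.93e-06). All 4 of these calls passed under each of 13 alternatives. CAT and TXN2 were lower in each MLC library than in each SLC library, 2 of the 10 genes, as were 4074 of the 13965 tested. GPX1 was also higher in MLC, by a log2 fold change of 0.27 (SE 0.08, edgeR, Benjamini-Hochberg adjusted p = 0.0139), but its groups overlapped, and the call was lost without the first or the second SLC replicate and in a fit on all 12 libraries. GPX4, GPX8, TXN2, TXNRD2 and SOD2 did not pass, with log2 fold changes from -0.13 for TXN2 to 0.18 for GPX4, and SOD2 was at 0.00 (SE 0.15). GPX4 was called higher in 3 of 13 alternatives (0.17 without a filter, 0.24 without SLC replicate 3 and 0.23 without MLC replicate 3). TXN2 was called lower with the span trend removed (-0.18), and SOD2 without MLC replicate 2 (-0.25).

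With IL-1β + LOXL2 the comparison of layers shares no library with the former one. SOD1 was again higher in MLC (3921 ± 408 against 2388 ± 398, log2 fold change 0.73, SE 0.15, edgeR, Benjamini-Hochberg adjusted p = 0.0166). CAT was again lower (562 ± 30.5 against 931 ± 77.6, log2 fold change -0.72, SE 0.12, edgeR, Benjamini-Hochberg adjusted p = 0.00714). These were 1 of 10 genes higher and 1 lower, while 9.27% of 14085 genes were higher and 6.83% lower. TXNRD1 (0.54) and TXN (0.41) had positive values and did not pass, although TXNRD1 was called in 5 of 13 alternatives, among them DESeq2's Wald test (0.54), the span trend removed (0.54) and the fit on 12 libraries (0.53). Same-numbered libraries of these groups deviated together, as did SLC replicate 2 and MLC replicate 3, and with the replicate number as a block TXNRD1 passed with a log2 fold change of 0.56 (edgeR, Benjamini-Hochberg adjusted p = 0.00774) and TXN with 0.44, just under the threshold. The paired fit thus called 3 genes higher and 1 lower, among 14.4% and 13.2% of all genes, 3887 in all compared with 2268 without the block. Without the first SLC replicate SOD1, TXNRD1, CAT, GPX4 and SOD2 passed, the last pair lower in MLC. Of all genes tested in that setting 16.8% were higher and 16.1% lower, 4679 genes in all. Without the first MLC replicate SOD1 (0.79) and CAT (-0.76) passed. The SOD1 call was lost without SLC replicate 3 or without MLC replicate 2 or 3, and the CAT call without the second MLC replicate.

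**Figure D3:**
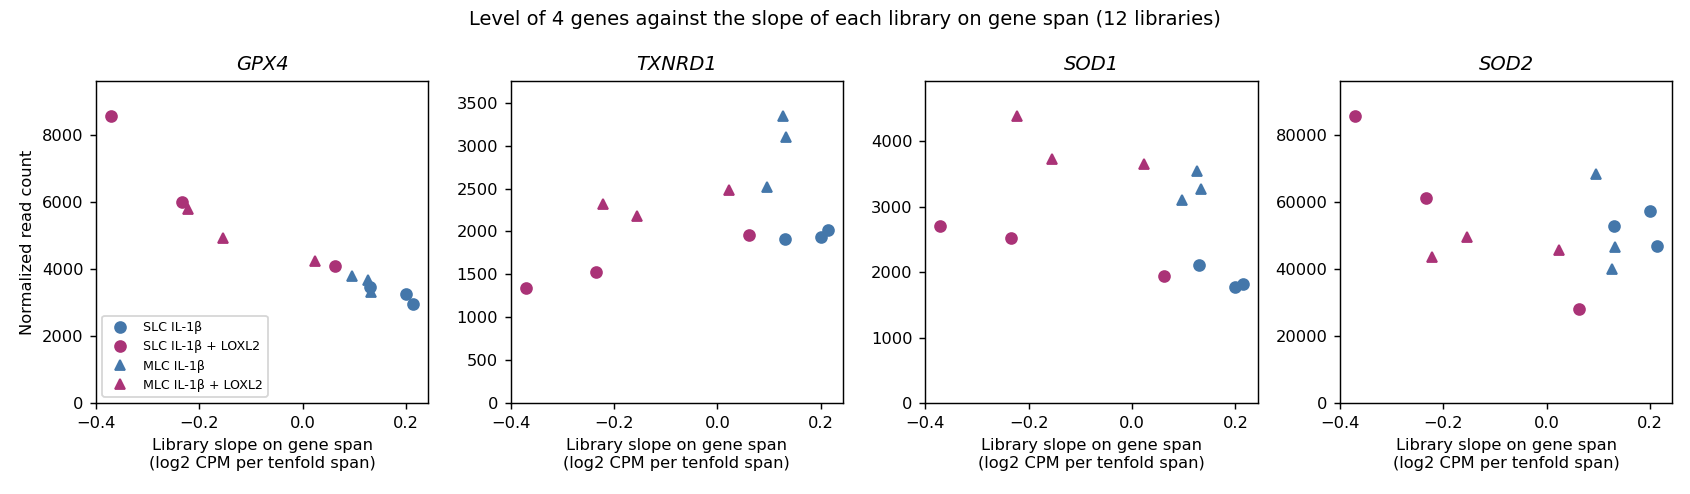
Normalized read count of GPX4, TXNRD1, SOD1 and SOD2 (vertical axes, starting at 0) against each library's slope on gene span (horizontal axes), for 12 libraries. Slopes are of log2 CPM as a deviation from gene means of the same layer, so the layers have separate zero points. Circles are SLC, triangles MLC, blue IL-1β and purple IL-1β + LOXL2. GPX4 is highest, at 8572 normalized counts, in the SLC library with the lowest slope of that layer (-0.371). Every MLC library is above every SLC library for SOD1. Pearson correlations of log2 normalized counts with slope in SLC and MLC were -0.99 and -0.98 for GPX4 and -0.96 and -0.85 for SOD1. They were 0.98 and 0.81 for TXNRD1 and -0.58 and 0.16 for SOD2 (6 libraries per layer).

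The order of group means differed between genes. GPX1, GPX4, TXN2 and TXNRD2 had their highest mean in SLC with IL-1β + LOXL2 (4834 ± 2071, 6221 ± 2248, 1577 ± 328 and 1393 ± 483 normalized counts, SD, n = 3), followed by MLC with IL-1β + LOXL2 (4604 ± 930.2, 4981 ± 787, 1338 ± 169 and 1157 ± 226). The spread of those 2 groups overlapped for each of the 4 genes. TXN and SOD1 were highest in MLC with IL-1β + LOXL2, and TXNRD1 was highest in MLC with IL-1β.

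Among 13368 genes, those with the profile most like a gene were found by the mean of the Pearson correlations of log2 normalized counts over the 6 SLC and over the 6 MLC libraries, as a description of libraries that share treatment and span trend. For GPX4 they were RPL35, TMEM256 and RPL10A (mean r 0.998 each), and for TXNRD2 CHMP1A (0.997), PSMD4 (0.997) and GPX1 (0.996). SOD1 was most like FN3K (0.988), TXN (0.978) and IMPDH2 (0.976). SOD2 was most like NDRG1 (0.987), OLFML2B (0.984) and the chemokine gene CCL20 (0.973), a different company from that of the other 3 genes.

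Other genes of the same chemistry were followed in 12 lists, of whose 116 genes 98 were found in the tables under the symbols searched. With LOXL2 in MLC 16 of 89 tested rose and 9 fell (median log2 fold change 0.17), beside 9.81% and 11.8% of all genes tested, which are also the shares for each list below. Without the first treated replicate 39 rose and 14 fell, beside 23.7% and 24.4% of all genes. In SLC 0 of 88 passed (median 0.25), as did 0% of all genes. DESeq2's Wald test called 20 of 86 higher and 6 lower in SLC, beside 17.3% and 15.2% of all genes. Without the first treated replicate edgeR called 48 of 89 higher and 18 lower, beside 31.0% and 30.8%. In MLC the peroxiredoxins, which are reduced by thioredoxin, had 3 of 6 genes rising and 0 falling, PRDX5 by 0.56 (SE 0.12), PRDX2 by 0.46 (SE 0.12) and PRDX4 by 0.40 (SE 0.11). Of 4 other glutathione peroxidases and dismutase genes tested, CCS, the copper chaperone of SOD1, rose by 0.52 (SE 0.13), and the secreted peroxidase gene GPX3 rose by 0.35 (SE 0.10). Among 11 glutaredoxins and thioredoxin partners TXNDC17 (0.45) and GLRX5 (0.40) rose and 0 fell. Of 6 glutathione S-transferases, MGST3 (0.44) and GSTK1 (0.42) rose. After the span trend was removed PRDX5 (0.31), PRDX4 (0.28), CCS (0.43) and MGST3 (0.43) still passed, whereas PRDX2 (0.20), GPX3 (0.18), TXNDC17 (0.19), GLRX5 (0.27) and GSTK1 (0.20) did not.

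Among genes of glutathione supply the cystine importer was singled out for its large change. SLC7A11, which brings in cystine for glutathione synthesis, had 569, 718 and 467 normalized counts with IL-1β and 271, 44.6 and 118 with IL-1β + LOXL2 in SLC. MLC libraries held 728, 564 and 764.5 with IL-1β and 387, 164 and 160.3 with IL-1β + LOXL2. Each treated library was below each IL-1β library in both layers. SLC7A11 fell in MLC with a log2 fold change of -1.52 (SE 0.27, edgeR, Benjamini-Hochberg adjusted p = 0.0190), which passed in 9 of 13 alternatives, and had one of -2.02 in SLC (SE 0.55, edgeR, Benjamini-Hochberg adjusted p = 0.0706). In SLC it was called in 3 of 13 alternatives, and with 1 library left out it ran from -2.88, without the first treated replicate, to -1.58. GCLM, a subunit of the enzyme that starts glutathione synthesis, also fell in MLC (-0.35, SE 0.11), so that 2 of 10 genes of glutathione synthesis and recycling fell and 0 rose, while the median of the 10 was above 0 (0.16 in MLC and 0.20 in SLC). With the span trend removed SLC7A11 (-1.31) and GCLM (-0.37) still passed in MLC. Of 9 genes of NADPH supply NADK2 (-0.48) and NNT (-0.35), both mitochondrial, fell and 0 rose (median of the 9 genes 0.15), and without the span trend NADK2 (-0.35) and NNT (-0.12) did not pass.

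Of 8 genes that make selenoproteins, the class to which GPX1, GPX4, TXNRD1 and TXNRD2 belong, 1 rose and 1 fell. These counts are close to the 9.81% and 11.8% of all genes. EEFSEC, the elongation factor for selenocysteine, rose by 0.41 (SE 0.13), SECISBP2L fell (-0.73, SE 0.18), and the others did not pass. Of 5 other selenoprotein genes tested, SEPW1 (0.62) and MSRB1 (0.58) rose, whereas 0 of 3 methionine sulfoxide reductase genes outside that class passed. Among 15 regulators and targets of NRF2, the transcription factor of the antioxidant response, the ferritin genes FTL (0.42) and FTH1 (0.40) rose and the repressor BACH1 (-0.60) and the exporter ABCC1 (-0.36) fell. NFE2L2 itself had -0.09 and did not pass. Once the span trend was removed EEFSEC (0.68), SECISBP2L (-0.59), SEPW1 (0.38), MSRB1 (0.35) and BACH1 (-0.48) still passed, whereas FTL (0.13), FTH1 (0.13) and ABCC1 (-0.09) did not. Of 8 ferroptosis genes AIFM2 rose (0.38), and ACSL4 (-0.45) and TFRC (-0.40) fell. Among 4 sources of superoxide and peroxide tested NCF1 rose (1.03, SE 0.34), from 9, 19 and 9 raw counts with IL-1β to 33, 27 and 28. So few counts left it untested under the filter of 10 counts in every library, and it was called in 5 of 12 alternatives. Of these AIFM2 (0.33) still passed without the span trend, and ACSL4 (-0.25), TFRC (-0.14) and NCF1 (0.96) did not. Of 12 genes of the early NF-κB response, PTGS2 (-0.71), NFKBIZ (-0.45) and BIRC3 (-0.36) fell in MLC and 0 rose, while SOD2, a target of the same pathway, did not pass. Without the first treated MLC replicate 1 of the 12 rose and 5 fell, beside 23.7% and 24.4% of all genes. Without the span trend PTGS2 (-0.86), NFKBIZ (-0.56) and BIRC3 (-0.40) still passed. In SLC the log2 fold changes of PTGS2, NFKBIZ and BIRC3 were -1.09, -0.53 and -0.60, none past the threshold. Each was called in 3 of 13 alternatives in SLC, namely DESeq2's Wald test, the fit on 12 libraries and without the first treated replicate (-0.83, -0.51 and -0.75). Of the 12 genes of this list 0 passed in SLC in the main test. DESeq2's Wald test called 0 higher and 4 lower, beside 17.3% and 15.2% of all genes. Without the first treated SLC replicate 4 were higher and 4 lower, beside 31.0% and 30.8%.

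Between layers with IL-1β, 25 of 87 tested genes of the 12 lists were higher in MLC and 17 lower, beside 24.2% and 22.7% of all genes tested. PRDX1, a cytosolic peroxiredoxin that takes electrons from TXN, had 19861 ± 2913 normalized counts (SD, n = 3) in MLC and 9379 ± 1118 in SLC, a log2 fold change of 1.10. TXNIP, the inhibitor that binds thioredoxin, had 15.6 ± 7.30 in MLC and 45.8 ± 7.76 in SLC, a log2 fold change of -1.54. SEPP1, the secreted selenium carrier, was lower in MLC (-1.86), as were extracellular SOD3 (-0.76) and mitochondrial MSRB2 (-0.88). The iron exporter gene SLC40A1 was higher in MLC (1.65). All of these passed with IL-1β + LOXL2 as well, 4 higher and 4 lower of 88 beside 9.27% and 6.83% of all genes, the others there being ACSL4 and SCLY. Without the first SLC replicate the counts were 9 higher and 17 lower of 89, beside 16.8% and 16.1% of all genes, and without the first MLC replicate 4 and 3 of 88, beside 5.99% and 3.78%. PTGS2 of the NF-κB list was also higher in MLC, by 2.30 with IL-1β and 2.68 with IL-1β + LOXL2.

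Markers of the layers did not all follow the labels. COL2A1 and COL9A1, collagens that define hyaline cartilage, had 310 ± 102 and 261 ± 40.5 normalized counts (SD, n = 3) in MLC with IL-1β and 0 in the 3 SLC libraries with IL-1β. SOX9 had 1618 ± 150 and 399.6 ± 24.8, and ACAN 7451 ± 826 and 894 ± 47.9. COL11A1, however, had 22229 ± 535 in MLC and 23200.4 ± 1204 in SLC, which overlap. PRG4, the lubricin gene that marks the superficial layer, was higher in MLC with IL-1β (111 ± 20.8 against 82.7 ± 9.67), as were COL3A1, DCN and LUM of the superficial list (log2 fold changes 0.71, 1.04 and 1.00). The other 3 genes of that list were higher in each SLC library than in each MLC library with IL-1β, COL1A2 (-0.34) and THY1 (-0.59) past the threshold and COL1A1 (-0.19) not. All 9 chondrocyte markers were counted in each MLC library, with sums from 1450 to 1922 CPM, and 7 or 8 in SLC, with sums from 699 to 1456, COL11A1 being the most abundant in all. Within SLC the sum was lowest in IL-1β + LOXL2 replicates 2 and 3 (699 and 947), the libraries of that layer in which GPX1 and GPX4 were highest. Within MLC it was 1922, 1763 and 1908 with IL-1β and 1866, 1598 and 1450 with IL-1β + LOXL2, again lowest in replicates 2 and 3 of the treated group, where GPX1 and GPX4 were highest. COL11A1 made up most of these sums, with 563 of the 699 CPM and 851 of the 1450. COMP of the same list went the other way, with 1784 and 1608 normalized counts in those SLC libraries and 1115 to 1207 with IL-1β, and with a mean of 3038 in treated MLC and 2348 with IL-1β. COL9A1 (319 and 261) and LECT1 (24.3 and 12.4) also had higher means in treated MLC. The part of these markers in the values of GPX1 and GPX4 was not tested in either layer. Fibroblast and superficial layer markers summed to between 59210 and 76690 CPM with COL1A1 leading, in both layers. The lowest sum was in SLC IL-1β + LOXL2 replicate 2, where GPX1 and GPX4 were highest. In SLC THY1 had 9926 to 11693 normalized counts with IL-1β + LOXL2 and 8002 to 8488 with IL-1β. In MLC it had 6269 to 7512 and 5223 to 5498. Treated means of DCN were also higher in both layers, those of COL3A1 and PRG4 lower. COL1A1, COL1A2 and LUM had lower treated means in SLC and higher ones in MLC. The part of these markers in the values of the 10 genes was not tested.

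Of markers of other cells, PTPRC and CDH5, which define leukocytes and endothelium, had at most 1.93 and 1.70 normalized counts in a library. Leukocyte and endothelial sums were at most 140 and 4.24 CPM, led by CD14 and VWF. Osteoblast markers, led by SPP1, summed to between 100.2 and 104.9 CPM in MLC and at most 22.4 in SLC, osteoclast markers, led by CTSK, to between 1741 and 3182, and mural markers, led by ACTA2, to between 830 and 2013. Mural sums were lower in MLC, as CAT was. Within MLC the mural sums also moved with the treatment, from 830 to 931 CPM with IL-1β and from 1078 to 1364 with IL-1β + LOXL2. ACTA2 made up nearly all of them, with 1336 of the 1364 CPM. It rose there by a log2 fold change of 0.54 (SE 0.11), as GPX1, GPX4, TXN, TXN2 and TXNRD2 did. The rest of the mural list had lower means in treated MLC, MYH11 with 498 normalized counts against 509 and RGS5 with 1.54 against 2.09. The part of the mural markers in the layer difference of CAT and in the MLC increases of GPX1, GPX4, TXN, TXN2 and TXNRD2 was not tested.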

How the data were processed

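RNA of 12 goat cell cultures was sequenced by the study. The authors deposited unscaled per-gene read counts. Their tool list names HISAT2 and featureCounts, with the ARS1.2 assembly, for paired-end sequencing after poly-T selection. How strand and multiply mapped reads were handled is not given in the sources used here, which leaves overlapping genes and close gene copies uncertain. The labels name an RNeasy kit and the paper names TRIzol.

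Tests used R 4.3.3 and the quasi-likelihood F test of edgeR 4.0.16 (filterByExpr at minimum count 10 and total 15, then TMM, Benjamini-Hochberg over all tested genes, threshold 0.05) on the libraries compared, all 12 for the interaction. SE is the size of the log2 fold change over the root of F. Size factors over 12 libraries from DESeq2 1.42.0 gave normalized counts, to which the exact permutation test was applied. Alternatives were DESeq2 size factors, 2 other count filters, DESeq2's Wald test, a replicate block, a fit on 12 libraries, and each library left out. A further alternative was an offset for the trend on RefSeq genomic span. It was fitted by lowess (fraction 0.3) in each library to deviations of log2 CPM from each gene's mean over the libraries compared. Replicate numbers were checked for pairing by correlating deviations from group means. Between the IL-1β + LOXL2 groups of the layers, same-numbered libraries correlated at 0.605, 0.206 and 0.168, each over 0.1, although SLC replicate 2 and MLC replicate 3 correlated at 0.45. No other comparison met this.

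Genes named are the 10 members, list genes that passed or had the extreme LOXL2 fold changes, the 3 closest profiles of GPX4, TXNRD2, SOD1 and SOD2, and, chosen after their values were seen, NFE2L2, layer markers and layer differences of list genes. Members and lists were chosen with earlier results of these data known. Selenoprotein and chondrocyte names were matched to older symbols after the tables were read (SEPW1, SEPP1, SEPN1, LECT1). Other selenoprotein names absent from the tables were not looked up under older symbols. For that list 7 of 16 names were found, and the rest may be present under another symbol. Apart from naming the gene with the most counts in a marker list and its share of the sum, levels were not compared between genes. Transcript lengths were not used here.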

Additional observations from a re-analysis of the deposited data

How the results depend on the processing

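Of 1453 gene values under alternatives, 1088 kept their direction and side of the threshold, 220 no longer passed, 107 newly passed and 38 changed sign. Filters, size factors and the replicate block changed no treatment call of the 10 genes. Fewer reads were not tried, so what depth limits was not tested. The cause of each change below was not tested.

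In SLC the 0 genes called became 4234 with DESeq2's Wald test (5 of the 10) and 5965 in the fit on 12 libraries (6 of the 10, the same 5 and SOD1). Leaving out a library gave 0 to 8849 genes and 0 to 9 of the 10, the higher values when IL-1β + LOXL2 replicate 1 was left out. In MLC the 2958 genes called became 1833 without the span trend (2 of the 10, TXN2 and TXNRD2) and 0 in the fit on 12 libraries (0 of the 10), and 0 to 6653 genes (0 to 8 of the 10) with a library left out. The highest came without IL-1β + LOXL2 replicate 1, and 0 without IL-1β replicate 1 or 3 or IL-1β + LOXL2 replicate 2. Between layers with IL-1β 6548 genes became 3715 in the fit on 12 libraries. With IL-1β + LOXL2 2268 became 4199 there and 3887 with the replicate block (4 of the 10), and 1140 to 4679 (0 to 5 of the 10) with a library left out. The interaction gave 0 or 1 gene. In the other comparisons the block changed no call of the 10 genes, and the genes called became 4053 for LOXL2 in MLC and 5816 between layers with IL-1β.

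Signs changed without the span trend for GPX8 (-0.063), TXNRD1 (0.044), SOD2 (-0.013) and LOXL2 (0.12) in SLC, CAT (0.015) and LOXL2 (0.19) in MLC, GPX1 between layers with IL-1β + LOXL2 (0.13, and 0.017 with the block) and GPX8 in the interaction (0.12). SOD2 between layers with IL-1β, near 0, had 0.00 with DESeq2 size factors and the Wald test, -0.012 without a filter, -0.001 with 10 counts in every library, -0.033 with the block, -0.045 without the trend and -0.003 in the fit on 12 libraries.

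With a library left out, log2 fold changes that changed sign ran from -0.23 to 0.49 for SOD2 and -0.019 to 0.097 for CAT in SLC and from -0.31 to 0.093 for SOD2 in MLC. Between layers with IL-1β they ran from -0.004 to 0.13 for GPX8 and -0.25 to 0.16 for SOD2, and with IL-1β + LOXL2 from -0.33 to 0.29 for GPX1, -0.04 to 0.18 for GPX8, -0.48 to 0.017 for TXNRD2 and -0.65 to 0.057 for SOD2. In the interaction they ran from -0.62 to 0.011 for GPX1, -0.13 to 0.11 for GPX8, -0.26 to 0.042 for TXN2, -0.21 to 0.068 for TXNRD1, -0.42 to 0.089 for TXNRD2 and -0.67 to 0.053 for SOD2.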
